A study of Mus musculus with 6 samples.

Results

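The genes examined here encode the receptors through which pituitary hormones act on the ovarian follicle: Fshr (the follicle-stimulating hormone receptor), Lhcgr (the luteinizing hormone and choriogonadotropin receptor) and Prlr (the prolactin receptor). These 3 genes were chosen by name, with earlier results of these data known. All 3 were found among the 3787 gene symbols of the 8 deposited gene lists. Chromatin immunoprecipitation with sequencing (ChIP-seq) measured H3K27me3, the trimethylated form of lysine 27 of histone H3, which is associated with silent genes. The cells were granulosa cells (GCs), the somatic cells around the oocyte, from wild type C57BL/6J mice of 8 to 9 weeks. Per the labels, GCs of 30 mice were distributed over 6 dishes, so that each sample was a culture of pooled animals and not of 1 animal. The supplementary methods of the study give another number of mice, and the difference was not resolved here. In the control group (n = 3) the labelled agent was none, and in the DHT group (n = 3) it was dihydrotestosterone, an androgen that is not aromatized to estrogen, at 25 nM for 24 h. Each group is represented by 1 pooled peak list and the gene lists made from it, so that no value per sample, no spread between replicates and no test of control against DHT was available. Sequencing depth per sample was unknown.

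FSHR and LHCGR are G protein-coupled receptors of the glycoprotein hormone family. FSH acts on GCs to drive follicle growth and estrogen synthesis, and in doing so prepares them to carry LHCGR, through which luteinizing hormone triggers ovulation and luteinization. Both couple to the stimulatory G protein and raise cyclic AMP. PRLR belongs to the class I cytokine receptors, signals through the kinase JAK2 and the transcription factor STAT5, and sustains the rodent corpus luteum. H3K27me3 is written by the Polycomb methyltransferase EZH2 and removed by demethylases such as KDM6B.

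Fshr (gene ID 14309) and Lhcgr (gene ID 16867) are neighbours on the minus strand of chromosome 17, and Prlr (gene ID 19116) lies on the plus strand of chromosome 15. In the RefSeq annotation of GRCm38.p6 the curated transcripts spanned 216 kb for Fshr, 172 kb for Prlr and 54.7 kb for Lhcgr. Fshr had 10 exons that filled 1.09% of its span, and its intron 1 alone took 103 kb. Lhcgr had 11 exons, which filled 12.5% of the span in its longest messenger, and an intron 1 of 19.7 kb. The longest curated transcript of Prlr had 10 exons and an intron 1 of 116 kb, and 2 further curated transcripts began downstream of its start. The bodies of Fshr and Prlr were therefore almost wholly intronic. The peaks of the study were in the older assembly mm9. GRCm38 positions were never set against a peak, and the number and strength of peaks inside or near each receptor gene were not analysed here.

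The upstream sequences of the receptors are shown because the deposited lists separate promoters from gene bodies. They are the 250 bases before the RefSeq transcription start, read 5′ to 3′ on the strand of the gene, with CG dinucleotides in capitals. Fshr stood at chr17:89200676-89200925, Lhcgr at chr17:88792015-88792264 and Prlr, for its farthest upstream start, at chr15:10176988-10177237, all in GRCm38.p6.
Fshr: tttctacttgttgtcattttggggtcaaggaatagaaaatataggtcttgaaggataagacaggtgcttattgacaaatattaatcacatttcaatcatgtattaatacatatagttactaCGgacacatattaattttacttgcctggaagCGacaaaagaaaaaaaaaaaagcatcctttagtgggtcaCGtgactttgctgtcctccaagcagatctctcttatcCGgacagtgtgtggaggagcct
Lhcgr: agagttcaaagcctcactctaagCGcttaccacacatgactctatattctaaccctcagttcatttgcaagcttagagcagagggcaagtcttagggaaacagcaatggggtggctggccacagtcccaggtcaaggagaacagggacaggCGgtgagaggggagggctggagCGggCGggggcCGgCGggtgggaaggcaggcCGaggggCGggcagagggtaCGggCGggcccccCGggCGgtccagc
Prlr: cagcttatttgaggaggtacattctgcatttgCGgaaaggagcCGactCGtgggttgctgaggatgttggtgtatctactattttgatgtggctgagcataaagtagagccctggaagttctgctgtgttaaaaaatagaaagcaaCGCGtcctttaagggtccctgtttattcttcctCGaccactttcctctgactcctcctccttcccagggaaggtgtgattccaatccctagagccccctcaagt
With the 50 bases from the start onward included, the window of 300 bases held 6 CG dinucleotides in Fshr, 14 in Lhcgr and 8 in the upstream promoter of Prlr. Of 32851 mouse promoters of this length, 43.6% had fewer than Fshr, 63.7% fewer than Lhcgr and 51.4% fewer than this promoter of Prlr. The 2 internal promoters of Prlr held 2 and 4. GC content was 64% in Lhcgr, 49.3% in the upstream Prlr promoter and 40.7% in Fshr. The CG dinucleotides of Lhcgr were crowded into the stretch next to the start, whereas those of Fshr were scattered.

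A GC box and an E-box were searched on both strands of the same windows, and none of their matches overlapped another. The GC box GGGCGG, bound by SP1, was found 4 times in Lhcgr, between 76 and 12 bases upstream, and in none of the Fshr or Prlr windows (35.7% of all promoters). The E-box CACGTG was found 1 time, in Fshr, 61 bases upstream (7.15% of all promoters). These matches describe the letters and say nothing about occupancy.

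For H3K27me3 at these genes the study also designed PCR primer pairs. Their products are shown because they mark where in Fshr and Lhcgr the authors assayed the mark. On chromosome 17 of GRCm38.p6 each pair matched exactly at 1 place, chr17:89200205-89200314 for Fshr and chr17:88791252-88791351 for Lhcgr. The products are given on the strand of the gene, with the primers in capitals.
Fshr site: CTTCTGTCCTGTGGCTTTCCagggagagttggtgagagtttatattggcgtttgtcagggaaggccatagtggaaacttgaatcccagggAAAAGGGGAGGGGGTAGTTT
Lhcgr site: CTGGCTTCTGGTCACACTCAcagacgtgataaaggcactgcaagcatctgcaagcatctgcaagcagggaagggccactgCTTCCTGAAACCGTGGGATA
The Fshr product of 110 bases lay in intron 1, from 361 to 470 bases downstream of the start. The Lhcgr product of 100 bases also lay in intron 1, from 663 to 762 bases downstream. These distances count from the RefSeq start in GRCm38.p6 and differ slightly from those the study states for the same sites. Both sites were thus inside the gene body and at the same time within 1 kb of the start, the distance that the study took as promoter. The PCR measurements themselves were not analysed here, and no primer pair for Prlr was used here.

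All 3 receptor genes were in the list of genes with an H3K27me3 peak in the gene body in control GCs. After DHT, Fshr remained in the corresponding list, whereas Lhcgr and Prlr were no longer in it. None of the 3 was in the promoter list of either group. Only Lhcgr was in a list of regulated genes: it appeared among genes that DHT upregulated and that carried a gene body peak, and again among those with an enhancer link. The plot of the lists in gene order shows these places beside those of the neighbouring genes.

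**Figure D1:**
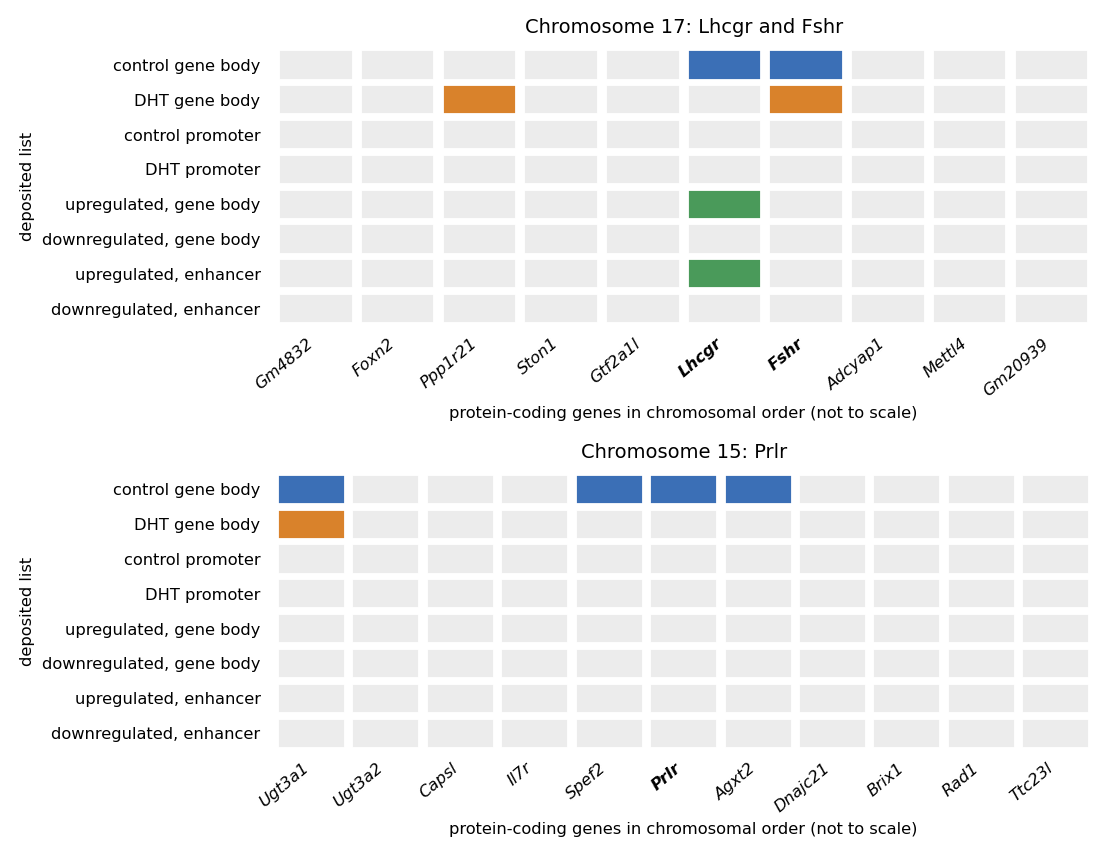
Places of Lhcgr, Fshr and Prlr (bold) and of neighbouring protein-coding genes (horizontal axis, chromosomal order, not to scale, without genes that are not reported) in the 8 deposited gene lists (vertical axis). A coloured tile marks a gene that stands in the list, and a grey tile one that does not: blue for control, orange for DHT, green for upregulated. Fshr was in 2 lists, Lhcgr in 3 and Prlr in 1.

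These places were set against the share of all genes in each list. Of the 49980 genes of the RefSeq table, 6.27% had a place in the control gene body list and 2.28% in that of DHT, compared with 3 and 1 of the 3 receptors. Among the 21900 protein-coding genes these shares were 13.0% and 4.76%. Because the receptors were chosen with earlier results known, these shares are a description and not a test. The state of Fshr, in both lists, was that of 1.36% of all genes and 2.89% of protein-coding genes. The state of Lhcgr and Prlr, listed in control and absent after DHT, was that of 4.91% of all genes and 10.1% of protein-coding genes. The reverse state, in the DHT list alone, was that of 0.924% of all genes and of none of the receptors. The promoter lists held 0.316% of all genes in control and 0.108% after DHT, so that the absence of 3 genes from them is the usual state. For regulated genes, 0.0440% of all genes were upregulated with a gene body peak and 0.126% upregulated with a linked enhancer, where Lhcgr stood. The downregulated lists, which held none of the receptors, comprised 0.0300% with a gene body peak and 0.0660% with an enhancer. How many peaks a listed gene carried is not recorded in the lists, so a place in both lists says nothing of a change in their number.

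The share of listed genes rose with gene length, and the receptor genes differed in length. Fshr was longer than 95.9% of 21000 protein-coding genes with a curated transcript, Prlr than 94.6% and Lhcgr than 79.5%. Of the 610 other protein-coding genes whose length was within 25% of Fshr, 66.7% had a place in the control list (95% Wilson interval 62.9 to 70.3%) and 24.3% in that of DHT (21.0 to 27.8%). Of the 822 genes as long as Prlr, 57.8% (54.4 to 61.1%) were listed in control and 19.6% (17.02 to 22.4%) after DHT. A control peak somewhere in the body was thus the more frequent state for genes of these lengths, except that the share fell to 49.4% for Prlr when genes within 50% of its length were counted. Lhcgr differed from both: of the 2074 genes of its length, 20.4% (18.7 to 22.2%) were listed in control and 5.88% (4.95 to 6.98%) after DHT. The intervals cover counting error only.

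The combined states were then read in the same length classes. Being in both lists, as Fshr was, held for 18.4% (15.5 to 21.6%) of the genes as long as Fshr. Being in the control list alone held for 44.4% (41.0 to 47.8%) of the genes as long as Prlr and for 18.3% (16.7 to 20.04%) of those as long as Lhcgr. Among control-listed genes of like length, the share that was also in the DHT list was 27.5% (23.4 to 32.1%) for the length of Fshr, 23.2% (19.6 to 27.2%) for that of Prlr and 10.2% (7.63 to 13.4%) for that of Lhcgr. The loss of a control-listed gene from the DHT list, as for Lhcgr and Prlr, was therefore the majority state at each of these lengths, and the retention of Fshr the minority state. The median length was 233 kb for genes in both lists and 84.4 kb for genes in the control list alone, compared with 16.7 kb for all protein-coding genes. Fshr lay below the former median, Prlr above and Lhcgr below the latter.

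**Figure D2:**
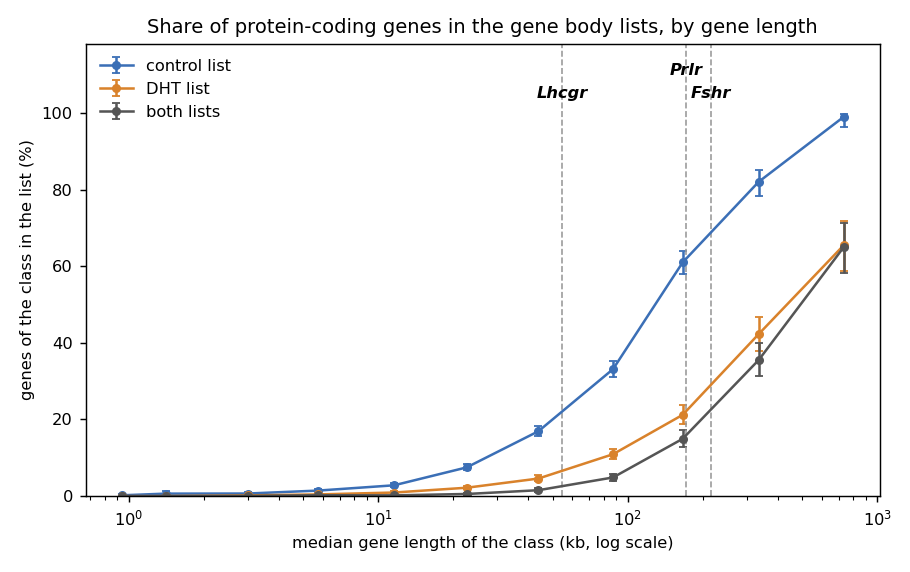
Share of protein-coding genes in the control, DHT or both gene body lists (vertical axis, %) by class of gene length, each inner class spanning a doubling and every class placed at its median (horizontal axis, kb, log scale), with 95% Wilson intervals. Dashed lines mark the lengths of Lhcgr (54.7 kb), Prlr (172 kb) and Fshr (216 kb). The share in the control list rose from 16.9% in the class of 32 to 64 kb, which holds Lhcgr, to 61% in the class of 128 to 256 kb, which holds Prlr and Fshr.

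On chromosome 17, Lhcgr and Fshr were next to each other and both were in the control list, while the genes beyond Lhcgr were not. Gtf2a1l (a germ cell form of a general transcription factor subunit), Ston1 (an endocytic adaptor), Foxn2 (a forkhead factor) and Gm4832 were in neither gene body list, and Ppp1r21 (an endosomal protein) was in the DHT list alone. The nearest neighbour on the side of Fshr is not reported here. Beyond it, Adcyap1, the gene of the neuropeptide PACAP, Mettl4 (an adenine methyltransferase) and Gm20939 were in neither list. None of these 8 neighbours was in a promoter, regulated or enhancer list.

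On chromosome 15, Prlr stood between Spef2, required for the sperm flagellum, and Agxt2, a mitochondrial aminotransferase, both of which, like Prlr, were listed in control alone. Spef2 spanned 171 kb and Agxt2 51.6 kb. Il7r, the interleukin 7 receptor and a class I cytokine receptor like Prlr, was in neither list at 23.7 kb. Ugt3a1, a glycosyltransferase, was in both lists. The remaining 6 neighbours, Ugt3a2, Capsl, Dnajc21, Brix1, Rad1 and Ttc23l, were in neither. Control peaks thus marked 3 of the 10 neighbours of Prlr and DHT peaks 1. Of the 776 protein-coding genes of chromosome 15, 11.6% were listed in control and 4.38% after DHT. With 10 protein-coding genes a side, the control share of the neighbours was 15%. A long noncoding RNA, Gm41268, overlaps Prlr and was in no gene body list. No annotated gene overlapped Fshr or Lhcgr.

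Few genes shared the combination of lists that held Lhcgr, a number bounded by the short upregulated list for gene body peaks. Genes of that list have a gene body peak by definition, so these places were not independent. The upregulated list for gene body peaks held 22 genes, of which 16 were in the control list alone and 10 were also in the enhancer list of 66 genes. Genes with exactly the places of Lhcgr over all 8 lists numbered 5 with Lhcgr itself. The other 4 were Epha3 (an ephrin receptor tyrosine kinase, 321 kb), Tg (thyroglobulin, 180 kb), Slc16a12 (a creatine transporter, 78.9 kb) and the noncoding gene Atxn7l1os2. Lhcgr, at 54.7 kb, was the shortest of the 4 protein-coding genes. The authors drew the enhancer list from H3K27me3 and expression across control and DHT samples of the study, so its direction is not independent evidence. No level or fold change of RNA was used here. The places of Prlr were shared by 2365 other genes and those of Fshr by 655.

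Other receptors of the same families were then looked up, against the 13.0% and 4.76% of all protein-coding genes that were in the control and DHT lists. Of the 6 further members of the glycoprotein hormone and relaxin receptor family, Lgr5 (a receptor for R-spondins that marks stem cells, 137 kb) was in both lists like Fshr. Rxfp1, the relaxin receptor (96.3 kb), was in the control list alone like Lhcgr. The thyrotropin receptor gene Tshr, Lgr4, Lgr6 and Rxfp2 were in neither. Of the 29 class I cytokine receptors other than Prlr, 3 were in the control list alone as Prlr was, namely Lepr (the leptin receptor, 97.9 kb), Il5ra and Il13ra1. Ghr, the growth hormone receptor gene and a close relative of Prlr, was in both lists at 266 kb. Csf2ra was also in both, and the remaining 24 were in neither. Medians of gene length were 108 kb in the former family and 27.2 kb in the latter.

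The genes for the ligands and for pituitary control of these receptors, among them Fshb, Lhb, Cga and Prl, were in neither gene body list for 12 of 12 genes. Their median length was 5.31 kb, and in the class of 4 to 8 kb only 1.44% and 0.444% of protein-coding genes were listed. Absence from the lists was thus the usual state at that length. The 12 genes ranged from 0.909 to 67.8 kb, so this class matches them only roughly. No statement about the ligands in the pituitary follows, since the cells were GCs.

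Downstream of FSHR and LHCGR, 18 of 42 genes of the G protein and cyclic AMP pathway (42.9%, Wilson interval 29.1 to 57.8%) were listed in control and 10 (23.8%) after DHT. Of all protein-coding genes 13.0% and 4.76% were listed, and of those of 64 to 128 kb, the class that holds the median length of this pathway (85.8 kb), 33.1% and 10.9%. The control share of that class lay inside the interval of the pathway. Its DHT share was below that of the pathway, for which no DHT interval was computed. Lengths in the pathway ranged from 8.25 to 1302 kb, so a single length class matches them only roughly. Gnas, which encodes the stimulatory G protein subunit, and Gnaq, which encodes a subunit that activates phospholipase C, were in both lists, while Gnai1, for an inhibitory subunit, was in the control list alone. Of the adenylyl cyclases, which make cyclic AMP, Adcy2 and Adcy8 were in both lists and Adcy7 and Adcy9 in the control list alone. Among subunits of protein kinase A, Prkacb was in the control list alone and Prkar1b in both. Creb1 and Crem, transcription factors that respond to cyclic AMP, were in the control list alone. Of the phosphodiesterases, which degrade cyclic nucleotides, Pde3a, Pde3b, Pde8a and Pde10a were in the control list alone and Pde4b, Pde4d and Pde11a in both. Pde11a was in the same upregulated gene body and enhancer lists as Lhcgr and differed from it by its place in the DHT list. Rapgef4, a cyclic AMP sensor, and Pde7b were in the DHT list alone.

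Downstream of PRLR, 7 of 26 genes of JAK and STAT signalling (26.9%, 13.7 to 46.1%) were listed in control and 1 (3.85%) after DHT. The median length was 33.1 kb, and in the class of 32 to 64 kb 16.9% and 4.58% of protein-coding genes were listed, the former inside the interval. Among the STAT genes, Stat3 and Stat4 were in the control list alone. Jak2, Stat5a and Stat5b, the members nearest to PRLR, were in neither list. Socs6 (a suppressor of cytokine signalling), the phosphatase gene Ptpn2 and the adaptor gene Gab2 were in the control list alone, and Sos1, a Ras exchange factor, was in both.

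Of 36 genes that FSH, LH or prolactin are known to regulate in GCs and luteal cells, 9 (25%, 13.8 to 41.1%) were listed in control and 2 (5.56%) after DHT. Their median length was 25.8 kb, and in the class of 16 to 32 kb 7.49% and 2.19% of protein-coding genes were listed, the former below the interval. All 36 targets ranged from 1.52 to 394 kb and the listed ones from 19.0 to 394 kb, so this class matches them only roughly. Cyp19a1 (aromatase, which makes estrogen, 102 kb), the epidermal growth factor family ligands Ereg and Btc, the cyclin gene Ccnd2, Runx1, Runx2 and Igf1r were among those in the control list alone. Esr1, estrogen receptor alpha, was in both lists, as Fshr was. Nr5a2, a nuclear receptor needed for ovulation, was in the DHT list alone. None of the genes in these 6 lists was in a promoter list, and Pde11a was the only gene other than Lhcgr in a regulated list. The regulated lists hold only regulated genes that also had a gene body peak or a linked enhancer. Absence from them therefore does not show that the RNA of a gene was unchanged after DHT.

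**Figure D3:**
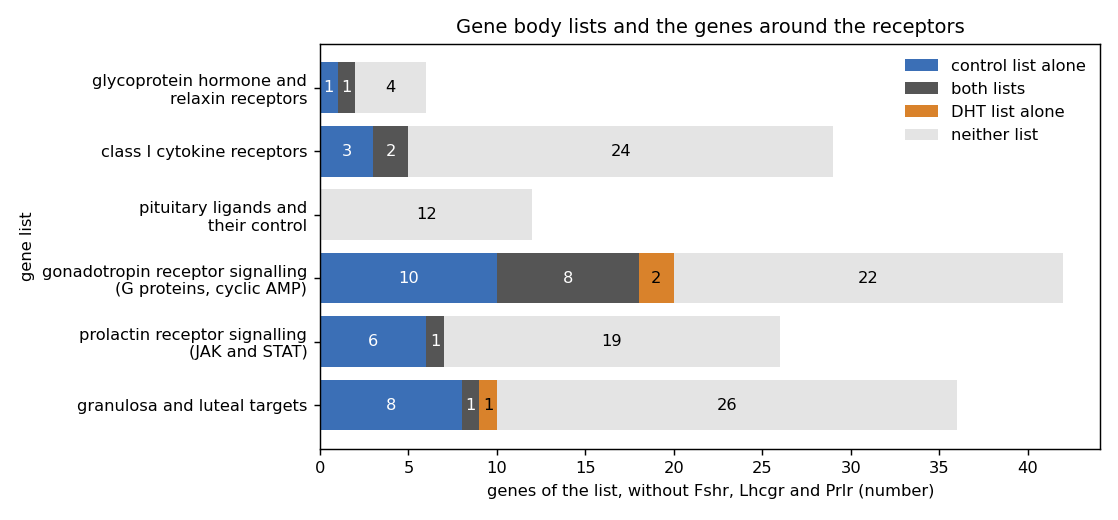
Number of genes (horizontal axis) of each of 6 gene lists around the receptors (vertical axis) that were in the control gene body list alone, in both, in the DHT list alone or in neither, with Fshr, Lhcgr and Prlr left out. Cyclic AMP signalling had 18 of 42 genes in the control list and the pituitary list 0 of 12.

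Counted together, each gene once, 41 of 151 genes (27.2%, 20.7 to 34.7%) were listed in control and 16 (10.6%, 6.63 to 16.5%) after DHT, above the 13.0% and 4.76% of all protein-coding genes. Of the 49 between Lhcgr and Fshr in length (54.7 to 216 kb), 38.8% (26.4 to 52.8%) were listed in control and 10.2% (4.44 to 21.8%) after DHT. Among all 3450 protein-coding genes of that length range the shares were 37.3% and 12.5%, inside both intervals.

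On the chromosomes of the receptors, the peak lists were described without reference to any gene. Chromosome 17 held 561 control and 135 DHT peaks, and chromosome 15 held 655 and 157. DHT peaks were 24.1% of control peaks on chromosome 17 (95% interval 19.9 to 29.0%) and 24% on chromosome 15 (20.1 to 28.5%), compared with 24.3% in the genome. Both intervals cover counting error of the peaks only, and neither the spread between samples nor sequencing depth. These chromosomes ranked 12 and 13 of 20 by this ratio. At their mean density a stretch as long as Fshr would hold 1.32 control peaks and 0.327 DHT peaks, a stretch as long as Prlr 1.12 and 0.270, and a stretch as long as Lhcgr 0.334 and 0.0829. All 3 values for DHT, and that of Lhcgr in control, were below 1.

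Most control peaks on the chromosomes of the receptors were weak. The fold enrichment of a peak is the ratio of its signal to the background that the peak caller set for its own pool. Whether that background came from an input was not stated. The median fold enrichment was 3.52 in control and 4.26 after DHT on chromosome 17, and 3.43 and 4.18 on chromosome 15. Control peaks had a median width of 382 bp on chromosome 17 and 464 bp on chromosome 15, and DHT peaks one of 320 and 328 bp. Of the control peaks, 57.4% on chromosome 17 and 63.4% on chromosome 15 had a q-value above 0.01, compared with 32.6% and 35.7% of the DHT peaks. When peaks with a q-value above 0.001 were left out, chromosome 17 kept 54 control peaks and 48 DHT peaks, and chromosome 15 kept 42 and 36. The ratio thus rose to 88.9% and 85.7%. In the genome 1442 control and 1015 DHT peaks were kept at this limit, a lower ratio than on either chromosome. Few intervals were common to both peak lists: 30 DHT peaks (22.2%) overlapped a control peak on chromosome 17, and 23 (14.6%) on chromosome 15. Over the genome 673 DHT peaks (16.9%) did so, so low overlap was not particular to these chromosomes. A place in both gene body lists, as for Fshr, therefore does not show that the peaks coincide, and the strength of the peaks in the 3 receptor genes was not analysed here.

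**Figure D4:**
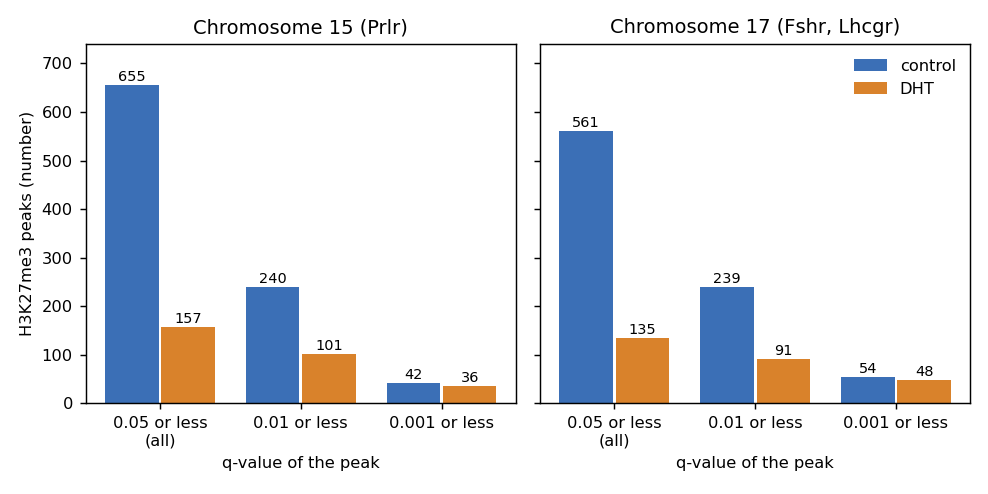
Number of H3K27me3 peaks (vertical axis) in the pooled control and DHT lists on chromosome 15, which carries Prlr, and chromosome 17, which carries Fshr and Lhcgr, at 3 limits on the q-value (horizontal axis). Control exceeded DHT by 655 to 157 and 561 to 135 over all peaks and by 42 to 36 and 54 to 48 at the strictest limit of 0.001.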

How the data were processed

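H3K27me3 ChIP-seq covered 3 control and 3 DHT samples of GCs, grouped by the labelled agent. Per the submitters' processing notes, Bowtie2 2.3.4, MACS2 2.1.1 and mm9 were used. The authors kept uniquely mapped reads and called broad peaks with a q-value limit of 0.05, and the deposited files hold 1 list per group. How replicates were pooled was not stated. For each peak the deposited columns used were the fold enrichment (a ratio) and the −log10 q-value. The deposited gene lists hold symbols without values. In them a gene body runs from start to end of transcription, and a promoter spans 1 kb either side of the start.

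Symbols were matched to RefSeq genes of GRCm38.p6, older symbols included: 3134 of 3144 control and 1142 of 1146 DHT gene body entries, 158 of 160 and 54 of 55 promoter entries, and 63 of 66 upregulated enhancer entries matched a distinct gene. The other 3 lists matched in full. GRCm38 gave lengths, gene order, promoters and PCR sites (exact match on chromosome 17) and was never joined to mm9 peaks. Python 3.11.15, numpy 2.4.6, pandas 2.3.3, scipy 1.17.1 and matplotlib 3.10.9 were used. Intervals are 95% Wilson intervals, whose code was tested on simulated data. Peak overlap was 1 bp or more. Genes named were the 3 receptors, up to 5 protein-coding neighbours a side, listed genes of 6 pathway lists, and genes sharing a receptor's places, where 20 or fewer. Unlisted pathway genes given as examples were chosen after their places were seen. A few genes named by this rule, a further motif and a further PCR site are not reported here. Members and lists were chosen with earlier results of these data known.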

Additional observations from a re-analysis of the deposited data

How the results depend on the processing

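Each peak and gene list stands for a whole group. No paired analysis was possible because the lists hold no value per sample, and for the same reason no replicate was left out. Peaks inside or within 50 kb of the receptors were not counted, because no mm9 gene positions were used, so that alternative was not run. Depth is unknown, so a gene missing from a list is not shown to lack the mark. With older symbols and case ignored, Fshr, Lhcgr and Prlr stood in the same 2, 3 and 1 lists. Alternatives with curated transcripts alone or whole gene records were chosen after seeing the data.

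The share of genes in the control and DHT gene body lists was 13.0% and 4.76% among protein-coding genes and 12.0% and 4.36% among genes with a curated transcript. For the length of Fshr the control share moved to 57.8% within 50% of its length, and the DHT share to 28.9% within 10% and 29.5% in its decile of length. For that of Lhcgr the control and DHT shares moved to 17.4% and 4.74% within 50%, to 17.1% and 4.34% in the decile, and to 25.8% and 7.59% with whole gene records. For that of Prlr the control share moved to 49.4% within 50% and 65.7% in the decile, and the DHT share to 29.5% in the decile. Of the pathway genes, 39.4% of those over 20 kb and 38.8% of those in the length range of the receptors were in the control list. With a q-value limit of 0.01, DHT peaks per control peak came to 42.1% on chromosome 15 and 38.1% on chromosome 17, and with 0.001 to 85.7% and 88.9%. The cause of these moves was not tested. Of 85 alternatives over 30 results, 53 stayed within counting error or, for widths, fold enrichment and covered length, within 1.5 times of the value given, and 32 moved, 10 of them widths or covered lengths on the chromosomes of the receptors at stricter q-values.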

Other observations

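Markers of cell types that follicle preparations can hold were also looked up. Of 7 granulosa markers, Fshr and Cyp19a1 were in the control gene body list and Fshr and Nr5a2 in the DHT list. Neither of the theca markers (0 of 2, Cyp17a1 and Insl3) and none of the oocyte markers (0 of 3, Gdf9, Bmp15 and Zp3) was in either list. Pecam1, an endothelial gene, and Ptprc, the leukocyte gene for CD45, were in both lists, 1 of 3 markers each. Dcn, a stromal gene, was in the control list alone, 1 of 3. For comparison, 13.0% of all protein-coding genes were listed with a control peak in the body, and 4.76% with a DHT peak. Finding 0 among 2 or 3 markers is thus the usual state, and no contrast between cell types follows from these counts. A place in a list of H3K27me3 peaks is not expression, so the cell type on the labels was not checked by these genes.

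The promoters of genes in the gene body lists and of genes in the promoter lists differed in CG content. Over 17492 protein-coding genes with a promoter in the RefSeq table, taking the promoter with the most CG dinucleotides per gene, the median was 15 in 300 bases. It was 20 for genes in the control gene body list alone and 20 for genes in both gene body lists. For 107 genes of the control promoter list the median was 8, and for 30 genes of the DHT promoter list it was 11. Fshr with 6, Prlr with 8 and Lhcgr with 14 were all below the median of the gene body lists in which they stood. These are descriptions with no test.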
